A study of Mus musculus with 3 samples.

Results

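The mitochondrial genome of the mouse encodes 13 mRNAs, 2 rRNAs and 22 tRNAs, and these 37 genes were followed through early reprogramming of mouse embryonic fibroblasts. The members were all rows of the count table whose name starts with mt-, which gave 37 of 50507 rows. They were counted as a share of all counts of a library, as a class (mRNA or rRNA) and singly. In the 127 libraries used, 22.7% of all 10554052 counts fell on these 37 rows.

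Primary fibroblasts of BL6 mice carried a lentiviral tet-STEMCCA cassette, from which doxycycline induces Oct4, Sox2, Klf4 and c-Myc together, and the rtTA activator it needs. In the screen, cells were transfected with a 40 nM pool of siRNAs against 1 of 33 genes, with a non-targeting siRNA (nt) or without siRNA (Mock), were replated and induced 24 h later, and were harvested at day 6. The time course (Day00 to Day06) came from untransfected cells that were only replated, with Day00 as the uninduced start. Doxycycline medium also held a GSK3 inhibitor (chiron), an Alk5 inhibitor, ascorbic acid and LIF, so that every induced library shared these agents. Each condition had 3 libraries, 1 in each of 3 sequenced pools, except Mock with 5 and siMtf1 with 2. By the study's methods the replicates of an siRNA were separate transfections, and whether they, or those of the time course, came from separate preparations of fibroblasts is not given in the sources used here. The p-values measure the spread between these libraries.

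The median library had 73279 counts (lowest 29656, highest 235292). The libraries of replicate 3 were the deepest (median 127079, against 64227 and 63122) and had the lowest median mitochondrial share (21.6%, against 26.1% and 24.7%). The replicate was a term in the fit reported here because the study had corrected for batch by regression. The 10 fibroblast markers listed for the culture summed to 6164 to 7414 CPM (counts scaled to a common library total) on Day00, 2700 to 3559 on Day06 and 1369 to 1535 in nt, so that this sum moved with the groups compared. Over the siRNA libraries the fibroblast sum ran from 712 to 4797 CPM. Of the markers of other cells, all 4 erythroid genes had 0 counts in every library used, and the 5 endothelial markers summed to at most 72.8 CPM. The 6 muscle markers summed to at most 99.5 CPM, with 40.2 to 92.2 on Day00, 0 to 34.5 on Day06 and 0 to 14.0 in nt. The 5 neural markers summed to at most 309.0 CPM, with 76.9 to 211.8 on Day00, 165.7 to 271.4 on Day06 and 87.4 to 111.8 in nt. The 6 keratinocyte or epithelial markers summed to 0 to 20.1 CPM on Day00, 90.5 to 221.9 on Day06 and 74.9 to 119.8 in nt. Of these, Krt5 had 0 counts on Day06, and Krt5 and Krt14 had 0 counts in nt. The list also holds Epcam and Cdh1, epithelial genes that by the paper rise early in reprogramming. This sum is therefore not a mark of other cells alone. The 7 macrophage markers summed to 115.3 to 220.9 CPM on Day00, 20.7 to 90.5 on Day06 and 13.3 to 24.96 in nt. The muscle, neural, epithelial and macrophage sums differed between some of these groups as well. The part of cell composition in the values below was not tested, and in bulk RNA fewer cells with a transcript and less of it per cell cannot be told apart.

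Both strands of mitochondrial DNA are transcribed as long polycistronic RNAs, from which the tRNAs are cut out and so release the mRNAs and rRNAs that lie between them. The mRNAs encode core subunits of the respiratory chain (complexes I, III and IV) and of ATP synthase, and the rRNAs form the 2 subunits of the mitochondrial ribosome; all other parts of these machines come from nuclear genes. Most mature mitochondrial mRNAs carry short poly(A) tails and almost no untranslated sequence, and for some of them the tail completes the stop codon. Library synthesis by CEL-Seq2 starts from an oligo(dT) primer and each molecule is tagged with a unique molecular identifier (UMI), which makes poly(A) the point of capture.

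The gene ends show this arrangement. The last 30 bases of 6 mRNA genes are given 5′ to 3′ on the coding strand (GENCODE vM21 transcripts on GRCm38, which is mm10; all on the plus strand of chromosome M), with the encoded letters of the stop codon in capitals.
mt-Nd1: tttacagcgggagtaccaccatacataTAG
mt-Co2: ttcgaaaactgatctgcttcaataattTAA
mt-Nd4l: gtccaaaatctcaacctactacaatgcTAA
mt-Co3: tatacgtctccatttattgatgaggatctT
mt-Nd4: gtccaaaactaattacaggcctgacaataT
mt-Cytb: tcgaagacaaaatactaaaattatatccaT
The first 3 end in a complete stop codon. The genes mt-Co3, mt-Nd4 and mt-Cytb encode only its first T, and these were the 3 of 13 mRNAs of this kind. On chromosome M, mt-Nd1 lies at 2751 to 3707, mt-Co1 at 5328 to 6872, mt-Co2 at 7013 to 7696, mt-Co3 at 8607 to 9390, mt-Nd4 at 10167 to 11544, mt-Cytb at 14145 to 15288, mt-Rnr1 at 70 to 1024 and mt-Rnr2 at 1094 to 2675. Neighbouring mRNA genes overlap on the same strand at mt-Atp8 and mt-Atp6, at mt-Atp6 and mt-Co3 (by 1 base), and at mt-Nd4l and mt-Nd4. Reads in these overlaps cannot be assigned to 1 gene with certainty. The genes mt-Nd5 and mt-Nd6 overlap on opposite strands.

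On the mt- rows alone the rRNAs held more counts than the mRNAs, and with the nuclear copies added they held fewer. On those rows the rRNAs held 52.4% of the mitochondrial counts, with 700245 counts for mt-Rnr2 (the 16S rRNA of the large subunit) and 551955 for mt-Rnr1 (the 12S rRNA of the small subunit), the mRNAs held 47.6% and the tRNAs 0.0765%. Among the mRNA counts, mt-Nd1 (a complex I subunit) took 20.2% and mt-Co1 (the catalytic subunit of cytochrome c oxidase, complex IV) 17.1%. At the other end mt-Co2, which carries another copper centre of the same enzyme, took 0.949%, mt-Nd6 0.149% and mt-Atp8 0.138%. Per base of gene, counts over all libraries ran from 578.0 for mt-Rnr1 and 442.6 for mt-Rnr2 over 239.6 for mt-Nd1 down to 3.27 for mt-Nd6, the only mRNA encoded on the minus strand. This order depends on nearly identical nuclear copies (described below with their counts). With the counts of the copies added, all of which match mRNAs, the mRNAs held 56.7% and the rRNAs 43.3% of the mRNA and rRNA counts, mt-Co3 (327.8 per base) and mt-Co1 (241.4) were above mt-Nd1 (239.6), and both held more counts than mt-Nd1 in all (257024 and 372903, against 229289).

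The genes differ in the runs of A that they hold inside, where oligo(dT) can also anneal. The longest run is in capitals in these 30-base stretches of the coding strand.
mt-Nd2: tactaatcaacAAAAAAAAcccacgatcaa
mt-Rnr2: ttaaacttgctAAAAAAAcaacaaaatcaa
mt-Co1: tactactccggAAAAAAAgaacctttcggc
mt-Nd1: acatcttctatgAAAAAActttctacccct
mt-Co2: ctaaaatatttcgAAAActgatctgcttca
mt-Nd6: ttgggttagcattAAAgccttcacctattt
The shortest of these, 3 bases, was in mt-Nd6, the gene with the fewest counts per base. With the counts of nuclear copies added, the 6 genes with a run of 6 or more A had 61.4 to 442.6 counts per base (median 204.4) and the 9 without one 3.27 to 578.0 (median 48.5), so that the ranges overlapped, and mt-Rnr1 with its longest run of 5 had the most. Whether priming inside the genes set these levels was not tested.

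Nuclear pseudogenes that are near copies of members held counts as well. An alignment of the members to all annotated transcripts found 11 pseudogene rows on the nuclear chromosomes that share at least 200 bases with 9 of the members at 95% identity or more, and all 11 had counts and passed the filter for testing. Of these, 7 lie side by side on the minus strand of chromosome 1, from 24611535 to 24616197 (mm10), in the order of the mitochondrial genes they copy. Near their common ends a member and its copy can be identical, as for mt-Atp6 and Gm10925, while mt-Nd2 and Gm13339 (chromosome 2, 22590024 to 22590533, minus strand) differ at the base in capitals.
mt-Atp6: ctagtaagcctatatctacatgataataca
Gm10925: ctagtaagcctatatctacatgataataca
mt-Nd2: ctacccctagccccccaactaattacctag
Gm13339: ctacccctagccccccaactaattaTctag

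For 5 pairs the counts were split nearly evenly. The copy held a median of 50.7% of the joint counts of the pair for mt-Atp6 and Gm10925 (46.8% to 55.9% over the 127 libraries), 50.6% for mt-Co3 and Gm28437 (48.0% to 53.5%), 50.6% for mt-Co2 and Gm28661, 50.8% for mt-Nd3 and Gm28438, and 50.7% for mt-Nd4l and Gm10222. For mt-Co3 the split varied by 0.9746 percentage points (SD) over 127 libraries whose mitochondrial share ran from 10.8% to 31.4%. For mt-Co1 the copy Gm29216 held 42.4% and the copy Gm13340 12.98%, each of its joint counts with mt-Co1. For mt-Co2 the other copy, Gm13341, held 22.2% of its joint counts with mt-Co2. The copy of mt-Nd4, Gm28439, covers only the first 876 of 1378 bases and held 20.0%. From which locus a read came cannot be told from the counts. Together the copies took 4.77% of all counts (3.21% to 6.55% per library), and with them the mitochondrial share was 27.4% instead of 22.7%.

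**Figure D1:**
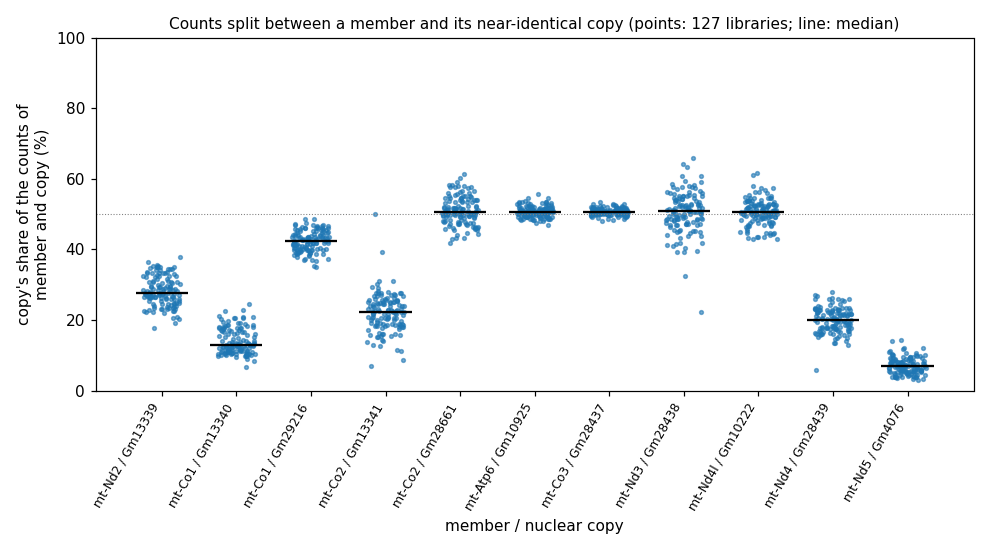
For each member and nuclear copy (x axis), the copy's share of the counts of both in percent (y axis), with a point for each of 127 libraries and a line at the median. The pairs of mt-Co2 with Gm28661, mt-Atp6, mt-Co3, mt-Nd3 and mt-Nd4l sit around 50%, and the pair of mt-Nd5 and Gm4076 is lowest, at a median of 6.84%.

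The tRNAs were nearly absent from these libraries. Of 22 tRNA rows, 10 had 10 or more counts over all 129 libraries, 9 had 1 to 9 and 3 (mt-Tc, mt-Tn and mt-Ts2) had 0, where a count of 0 allows up to 3 counts over all libraries (counting error only). The most counted were mt-Td with 723 and mt-Tm with 710 counts, tRNAs for aspartate and methionine, then mt-Ti with 132, mt-Tt with 56, mt-Ty with 51, mt-Tl1 with 46, mt-Tw with 37, mt-Ts1 with 28, mt-Te with 19 and mt-Tq with 15. Mature tRNAs carry no poly(A) tail, and whether these counts came from unprocessed RNA was not tested.

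The share of the mitochondrial transcripts changed with the day. It was 15.7%, 14.9% and 13.8% in the 3 Day00 libraries (replicates 1, 2 and 3; mean 14.8% ± 0.955 SD, n = 3), 12.53%, 10.8% and 11.1% on Day01 and 22.6%, 22.5% and 19.7% on Day03. It was then 20.8%, 20.4% and 19.9% on Day04, 20.4%, 21.5% and 20.7% on Day05, and 16.0%, 16.3% and 16.6% on Day06. Every Day01 library was therefore below every Day00 library, and every library of Day02 to Day06 was above them. The share is a summary over the members and has no test of its own; the genes were tested singly.

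The transfected cells were higher. In nt the share was 26.3%, 24.4% and 22.8% (24.5% ± 1.73 SD, n = 3) and in Mock 22.9% to 28.6% (median 25.7%, 25.9% ± 2.14 SD, n = 5), against 16.3% ± 0.287 (SD, n = 3) on Day06. In 32 of the 35 transfected conditions every library was above every Day06 library. Within each of the replicates, nt was above all 7 days.

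**Figure D2:**
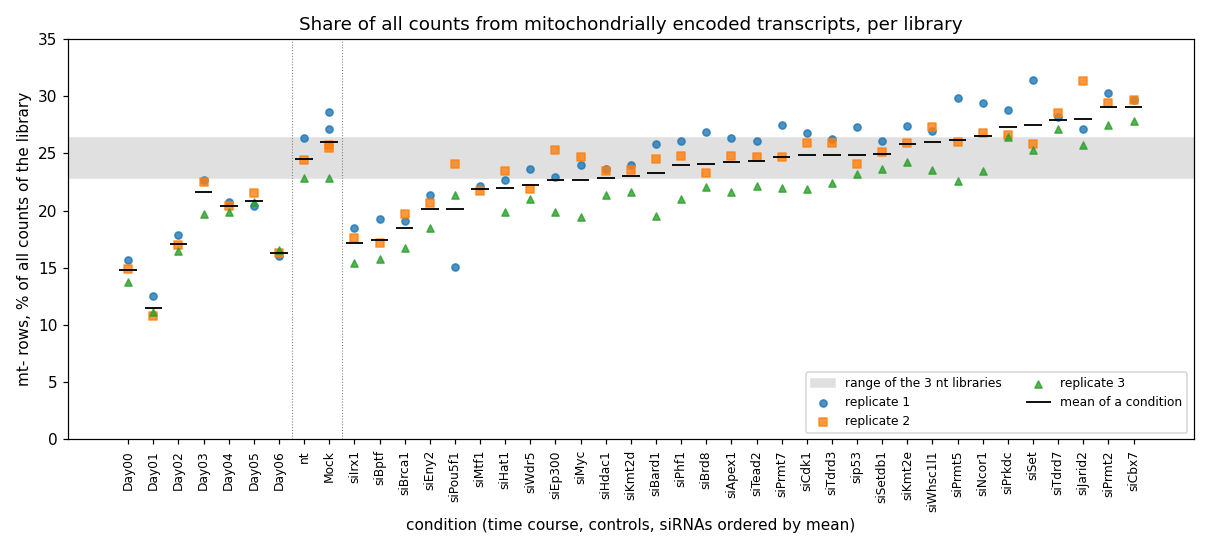
Share of all counts of a library on mt- rows in percent (y axis), for each library of the 7 days, nt, Mock and 32 siRNAs ordered by their mean (x axis), with symbols for replicates, a black line for the mean of a condition and a grey band from the lowest to the highest nt library. Day01 is lowest at a mean of 11.5%, siCbx7 is highest at 29.1%, and the siPou5f1 library of replicate 1 lies far below the other siPou5f1 libraries.

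The members were next tested one by one. The fit was an edgeR quasi-likelihood model over 3013 genes and all 127 libraries, with p-values adjusted by Benjamini-Hochberg over all 3013, and 17 members passed its filter on low counts: the 13 mRNAs, both rRNAs, mt-Td and mt-Tm. Levels are CPM relative to library totals over the tested genes after TMM scaling, and log2 fold changes carry their standard error. Over the 7 days, 15 of the 17 differed between some of the days (all but mt-Nd6 and mt-Tm), where 42.5% of all tested genes did. These are not levels per length, so each gene is compared only with itself across conditions.

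The first day brought the rRNAs down. Against Day00, 6 members fell on Day01 and 0 rose, where 6.8% of all tested genes fell and 3.09% rose. For mt-Rnr1 the level was 36106, 30004 and 44411 CPM on Day00 and 18843, 17359 and 24675 CPM on Day01, which is -0.86 ± 0.15 on the log2 scale (edgeR adjusted p = 4.83e-06). mt-Rnr2 fell by as much (-0.85 ± 0.16, edgeR adjusted p = 2.31e-05), and neither gene had overlapping groups. mt-Co1, mt-Co3 and mt-Nd4l also fell, by 0.61, 0.61 and 1.27 on the log2 scale, and mt-Td by 1.85. Both rRNA calls held without each replicate in turn, while those of the other 4 members did not, and in limma on the deposited log2 values 0 of the 6 were made. The counts of rRNA per count of mRNA went from 1.01, 0.802 and 1.14 on Day00 to 0.675, 0.561 and 0.833 on Day01, lower in each replicate, though the highest Day01 value passed the lowest of Day00.

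By Day03 the large rRNA was the member that had risen most. On Day02, 3 members rose (mt-Atp6, mt-Cytb and mt-Rnr2) and mt-Td fell, beside 5.14% of all genes that rose and 6.44% that fell. On Day03, 7 members rose and 0 fell, against a background of 5.11% and 5.81%. The level of mt-Rnr2 was 44213, 36229 and 34330 CPM on Day00 and 105290, 98864 and 81381 CPM on Day03, or 1.32 ± 0.16 on the log2 scale (edgeR adjusted p = 2.47e-12), with every Day03 library above every Day00 library. mt-Rnr1 rose by less (0.50 ± 0.15, edgeR adjusted p = 0.0163), and lost its call without the replicate term, with the 2 shallow libraries kept, without replicate 2 or 3, in DESeq2 and in limma. The 2 rRNAs come from the same primary transcript, and their ratio moved: there were 1.22, 1.21 and 0.773 counts of mt-Rnr2 per count of mt-Rnr1 on Day00, 2.09, 2.20 and 1.35 on Day03 and 0.760, 0.810 and 0.678 on Day06. The ratio was lowest in replicate 3 on each of these days.

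**Figure D3:**
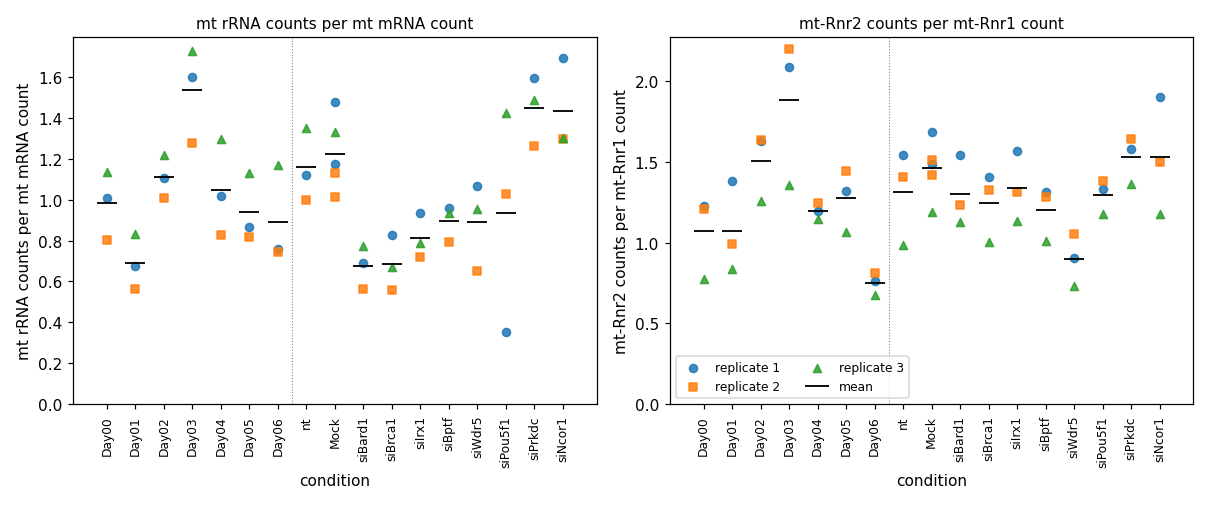
Left, counts of both rRNAs per count of mitochondrial mRNA, and right, counts of mt-Rnr2 per count of mt-Rnr1 (y axes), per library for the days, the controls and 8 siRNAs (x axes), with symbols for replicates and lines for means. Day01, siBard1 and siBrca1 have the lowest rRNA per mRNA, Day03 has the highest of both ratios, and the siPou5f1 library of replicate 1 stands apart on the left at 0.352.

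The mRNAs rose unevenly. On Day04, 7 members rose and mt-Nd4l fell, where 8.3% of all genes rose and 10.4% fell. On Day05, 11 of 17 rose and 0 fell, against 16.8% and 15% of all genes. Of complex III, mt-Cytb (cytochrome b) was at 5070, 4912 and 5587 CPM on Day00 and 12268, 14123 and 12660 CPM on Day05, or 1.31 ± 0.13 on the log2 scale (edgeR adjusted p = 2.72e-18). Of ATP synthase, mt-Atp6 was at 3305, 2859 and 3203 CPM on Day00 and 7384, 7420 and 8749 CPM on Day05 (1.34 ± 0.14, edgeR adjusted p = 3.55e-17). In both genes the lowest Day05 library was above the highest of Day00. Of complex I, mt-Nd1, mt-Nd2, mt-Nd3, mt-Nd4 and mt-Nd5 rose by 0.60 to 0.79 on the log2 scale. Of complex IV, mt-Co2 and mt-Co3 rose, but mt-Co1 had a log2 fold change of -0.09 and was not called.

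On Day06 the members had gone apart. Against Day00, mt-Atp6, mt-Cytb, mt-Nd4 and mt-Nd5 were higher and mt-Co1, mt-Nd4l, mt-Atp8 and mt-Td lower, where 10.7% of all genes rose and 11.5% fell. For mt-Co1 the level was 23236, 27040 and 19416 CPM on Day00 and 16291, 17008 and 11814 CPM on Day06, or -0.64 ± 0.13 on the log2 scale (edgeR adjusted p = 2.34e-05), and every Day06 library was below every Day00 library. The share of mt-Co1 in all mitochondrial mRNA counts went from 29.98% ± 2.44 (SD, n = 3) on Day00 to 17.5% ± 1.61 on Day06. mt-Cytb was still higher (0.59 ± 0.13, edgeR adjusted p = 0.000123), as was mt-Nd4 (0.60 ± 0.13, edgeR adjusted p = 7.17e-05). The call of mt-Atp6 was lost under 7 of the alternatives, and those of mt-Nd4l and mt-Nd5 under 5 and 3. Of mt-Atp8 the Day06 libraries held 0, 72 and 75 CPM, so that its fold change rests on few counts.

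Transfected controls had more of nearly every member than untransfected cells of the same day. This comparison (nt against Day06) holds the transfection and the handling that went with it together, which cannot be told apart. Of the 17 members 15 were higher in nt and 0 lower, where 15.6% of all genes were higher and 11% lower. The largest change with high counts was in mt-Rnr2, at 29288, 30382 and 35557 CPM on Day06 and 105430, 85323 and 76008 CPM in nt, or 1.45 ± 0.16 on the log2 scale (edgeR adjusted p = 1.73e-14). mt-Co2 was at 445, 596 and 511 CPM on Day06 and 1399, 1077 and 1291 CPM in nt (1.31 ± 0.19, edgeR adjusted p = 6.33e-09). mt-Atp6 differed by 1.03 ± 0.13, mt-Cytb by 0.88 ± 0.12 and mt-Nd2 by 0.88 ± 0.14. The groups did not overlap in any of these 5 genes. How many of all tested genes were without overlap was not counted. The difference was small in mt-Co1 (0.42 ± 0.13) and mt-Co3 (0.38 ± 0.13), and both calls were lost under several alternatives. In limma on the deposited log2 values, 5 members were called in this comparison.

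**Figure D4:**
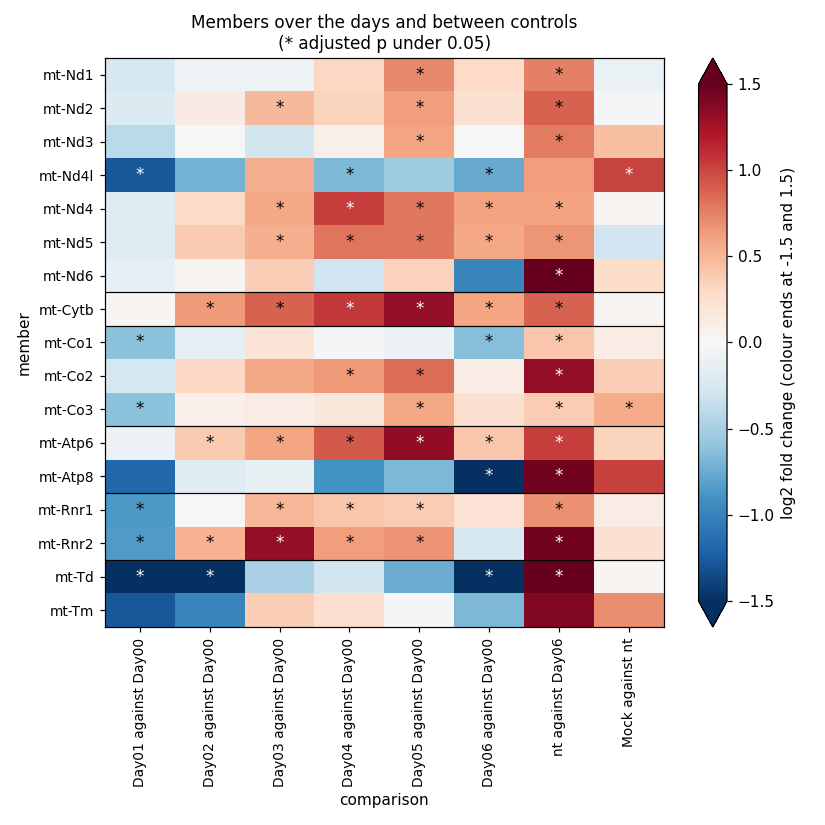
Log2 fold change (colour) of the 17 tested members (rows, ordered as complex I, III, IV, ATP synthase, rRNA and tRNA) in the comparisons of each day with Day00, of nt with Day06 and of Mock with nt (columns), with an asterisk where the adjusted p was under 0.05. The rRNA rows are lowest on Day01, mt-Rnr2 is highest on Day03 and in nt against Day06, and the column of nt against Day06 is above 0 in all 17 rows.

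Nuclear genes for the same machines were counted in lists chosen for the purpose. Of the 20 listed factors of mitochondrial DNA transcription and replication with a row, 0 passed the filter, so they are not described. On Day06 against Day00, 4 of 18 tested nuclear complex I genes rose and 0 fell (median log2 fold change 0.46, against 0.05 over all genes, of which 10.7% rose and 11.5% fell), 4 of 11 of complex IV rose (median 0.79), 2 of 12 of ATP synthase (median 0.42), 1 of 7 of complex III (median 1.07) and 2 of 26 mitoribosome genes, with 1 that fell. Examples are Ndufb9 of complex I (1.60 ± 0.43) and Atp5l of ATP synthase (1.61 ± 0.39). The largest called changes of the complex IV and III lists were in Cox5b (1.29 ± 0.46) and Uqcr11 (3.21 ± 0.99), and those of the mitoribosome list in Mrps6 (-1.81 ± 0.40) and Mrpl42 (1.53 ± 0.57). Of mitochondrial RNA processing 0 of 3 tested genes passed the test, and likewise 0 of 1 of complex II, 0 of 1 biogenesis regulators and 0 of 5 mitophagy genes. In nt against Day06, where 15.6% of all genes were higher and 11% lower, 7 of 26 mitoribosome genes were higher and 0 lower, and 3 of 7 of complex III were higher and 0 lower. Of complex I 3 of 18 were higher and 2 lower, of complex IV 1 of 11 higher and 2 lower, and of ATP synthase 1 of 12 higher and 3 lower. Of the short lists, 1 of 3 genes of mitochondrial RNA processing and 1 of 5 mitophagy genes were higher, and the 1 gene tested of complex II and the 1 biogenesis regulator did not pass the test.

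Mock and nt differed in few members. Of the 17, 2 rose in Mock (mt-Co3 and mt-Nd4l) and 0 fell, where 1.03% of all genes rose and 0.531% fell. mt-Co3 was at 13955, 11022 and 11609 CPM in nt and at 14622 to 22527 CPM (median 18369) in the 5 Mock libraries, a log2 fold change of 0.56 without overlap. Without the replicate 2 libraries neither was called, and without replicate 3 mt-Co3 alone was. This bears on the siRNA comparisons, since mt-Co3 was also higher than nt after 17 of the 33 siRNAs and lower after 0, and all of them share the same 3 nt libraries with the Mock comparison. When the controls were nt plus Mock, 1 of the 17 mt-Co3 calls was kept (siPrmt2), and mt-Co3 was called lower after 5 other siRNAs. For mt-Nd4l, 1 of 5 higher calls was kept (siPrkdc), and 9 lower calls were made after other siRNAs. Of all 73 calls against nt, described next, 47 were kept with these controls and 0 changed sign.

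Each siRNA was set against nt. Over the 33 siRNAs there were 73 calls among 561 tests of members (13%), beside 2.57% of all 99429 gene tests. The mt- rows held 22.7% of all counts, so that most members had more counts behind a test than the typical gene. How far this set the difference between the shares was not tested. Of the 73 calls, 31 were higher and 42 lower. The split changed with the scaling: with RLE size factors 79 calls were made, 46 of them higher (58.2%, against 42.5%). With scaling on rows outside mt-, 44.9% were higher. In DESeq2 69 were higher and 41 lower. Without replicate 1 there were 30 higher and 25 lower calls, without replicate 2 there were 8 and 24, and without replicate 3 there were 14 and 22. The split also rests on the control: against nt and Mock together 97 calls were made, 12 of them higher and 85 lower. All 17 members differed somewhere among the 35 transfected conditions, where 45.1% of all genes did. Of the 73 calls, 22 held without each of the replicates in turn, and 4 of them under all 13 alternatives that were run for these comparisons: mt-Rnr1 and mt-Rnr2 after siBrca1, mt-Co1 after siWdr5 and mt-Nd5 after siPou5f1.

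Counts of rRNA per count of mRNA were below every nt library in every library of 6 of the 33 siRNAs (siBard1, siBrca1, siIrx1, siMyc, siEp300 and siBptf). They were above every nt library after 0 siRNAs. Set against the nt library of the same replicate, every library was lower after 14 siRNAs and higher after 5. The difference in means was largest after siBard1 (-0.482) and siBrca1 (-0.472), followed by siIrx1 (-0.344). Brca1 and Bard1 are the partners of 1 ubiquitin ligase with a role in DNA repair. After siBrca1, 3 members fell and 0 rose, where 1.73% of all genes fell. mt-Rnr1 was at 68344, 60766 and 77388 CPM in nt and 39530, 32961 and 36111 CPM after siBrca1, or -0.92 ± 0.15 on the log2 scale (edgeR adjusted p = 1.45e-06). mt-Rnr2 was at 105430, 85323 and 76008 CPM in nt and 55627, 43652 and 36123 CPM after siBrca1 (-0.98 ± 0.16, edgeR adjusted p = 1.22e-06). The groups did not overlap in either rRNA. The third called member was mt-Nd5 (-0.53 ± 0.14), whose call was lost under 6 of 13 alternatives. The median of the 13 mRNAs was -0.20, against -0.0035 over all genes. After siBard1, both rRNAs fell (each by 0.55 on the log2 scale), as did mt-Nd6 and mt-Td, and mt-Co1 and mt-Nd4 rose, where 4.78% of all genes fell and 5.54% rose. The 3 siBrca1 libraries held 0.828, 0.561 and 0.671 counts of rRNA per count of mRNA and the 3 siBard1 libraries 0.691, 0.565 and 0.773, all below the 1.12, 1.00 and 1.35 of nt. None of the 6 siBard1 calls held without each replicate in turn.

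The siRNAs against Bptf and Irx1 had the lowest shares of all 33, and here mRNAs fell with the rRNAs. Bptf is a subunit of a chromatin remodeller and Irx1 a homeobox transcription factor. The share was 19.3%, 17.1% and 15.8% after siBptf and 18.5%, 17.6% and 15.4% after siIrx1. After siBptf 9 of 17 members fell and 0 rose, beside 1.1% of all genes that fell, which made up 9 of the 33 genes lower in this comparison. The siBptf libraries were shallow, with 30798, 43807 and 66570 counts, against 75100, 80136 and 143156 in nt. At such depth genes with few counts are less easily called. How far this set the 9 of 33 was not tested. They were both rRNAs (mt-Rnr1 -0.85 ± 0.15, mt-Rnr2 -0.96 ± 0.16), mt-Nd5, mt-Nd4, mt-Cytb, mt-Nd2, mt-Co1, mt-Nd1 and mt-Atp6, the mRNAs by 0.47 to 0.78 on the log2 scale. With RLE size factors 6 of the 9 were called, and 4 of the 9 calls held without each replicate in turn. The call of mt-Atp6 was lost under 9 of 13 alternatives, that of mt-Co1 under 7, that of mt-Nd1 under 6 and that of mt-Nd2 under 4, and those of the other 5 under 1 or 2. After siIrx1 6 members fell, where 1.59% of all genes did: both rRNAs (mt-Rnr1 -0.98 ± 0.15, mt-Rnr2 -0.93 ± 0.16) and the complex I genes mt-Nd1, mt-Nd2, mt-Nd4 and mt-Nd5. The calls of mt-Nd4 and mt-Nd2 were lost under 8 and 5 of 13 alternatives, and those of the other 4 under 1 or 2. In limma on the deposited log2 values none of these siBptf and siIrx1 calls was made, and the smallest adjusted p was 0.0785.

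After siWdr5, whose target is a core subunit of H3K4 methyltransferase complexes, the members moved both ways. 2 rose and 6 fell, where 12.2% of all genes rose and 15.1% fell. mt-Co1 was at 22248, 24737 and 14182 CPM in nt and 35065, 38208 and 25145 CPM after siWdr5, or 0.70 ± 0.13 on the log2 scale (edgeR adjusted p = 2.79e-06), and it made up 24.2% ± 2.94 (SD, n = 3) of the mitochondrial mRNA counts, against 14.6% ± 2.23 in nt. mt-Co2, of the same enzyme, was at 1399, 1077 and 1291 CPM in nt and 608, 654 and 769 CPM after siWdr5 (-0.88 ± 0.18, edgeR adjusted p = 5.59e-05). mt-Nd4l rose, and mt-Atp6, mt-Cytb, mt-Nd1, mt-Nd6 and mt-Rnr2 fell. The calls of mt-Cytb and mt-Nd6 were lost with RLE size factors and in DESeq2. That of mt-Nd4l was lost when the controls were nt plus Mock. In limma on the deposited log2 values mt-Co1 alone was called. Of the 8 calls, 6 held without each replicate in turn. Beside these, mt-Co1 made up a mean of 29.98% of the mRNA counts on Day00, 24.87% on Day01, 25.2% on Day02 and 27.7% on Day03. Its mean was 21.97% on Day04, 18.7% on Day05 and 17.5% on Day06. mt-Co2 stood at 431, 381 and 563 CPM on Day00. It made up a mean of 0.605% of the mRNA counts on Day00, 0.7302% on Day03, 0.6102% on Day06 and 0.509% after siWdr5. Whether the siWdr5 libraries were like those of any day was not tested. Among the nuclear lists, 5 of 18 tested complex I genes, 5 of 7 of complex III, 2 of 11 of complex IV, 2 of 12 of ATP synthase and 8 of 26 mitoribosome genes fell after siWdr5 and 0 rose.

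After siEny2 (a subunit of transcription export and histone deubiquitinase complexes), 2 members rose and 4 fell, where 0.763% of all genes rose and 1.13% fell. The complex I genes went both ways, with mt-Nd4l at 0.99 and mt-Nd3 at 0.73 and with mt-Nd4 at -0.53 and mt-Nd1 at -0.44, beside mt-Rnr1 at -0.57 and mt-Atp6 at -0.49. None of these 6 calls held without each replicate in turn.

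After siPou5f1, against the reprogramming factor Oct4 itself, 3 members were called, where 5.77% of all genes were. They were mt-Nd5 (-1.06), mt-Nd2 (-0.42) and mt-Co3 (0.44). The library of replicate 1 stood apart, with 3.92% of its counts on the rRNAs, against 12.2% and 12.53% in the other two. Without it mt-Nd5 was at -0.68 and still called, and over the 33 siRNAs 98 calls were made in place of 73.

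**Figure D5:**
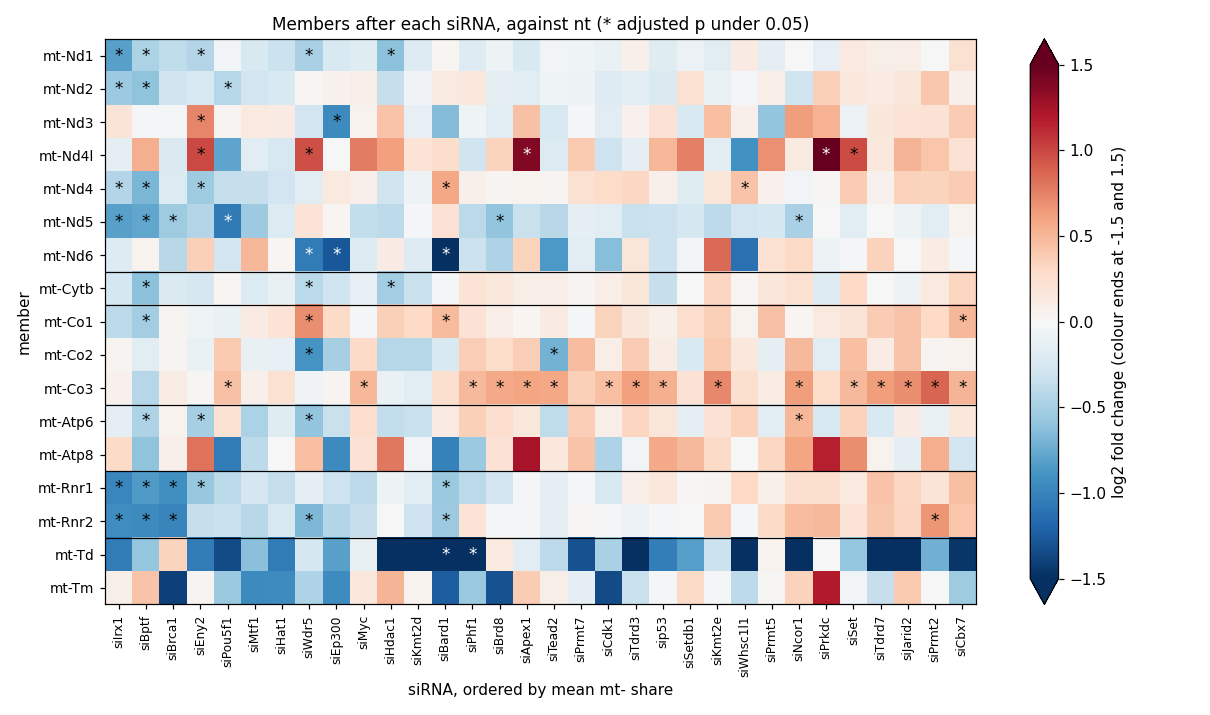
Log2 fold change (colour) of the 17 tested members (rows) after each of 32 siRNAs against nt (columns, ordered from the lowest to the highest mean mitochondrial share), with an asterisk where the adjusted p was under 0.05. The rRNA rows are called lower mainly at the left, mt-Co3 is called higher in 16 columns (in 1 when nt plus Mock were the controls), and mt-Nd5 lower in 6.

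The other siRNAs called at most 3 members each. After siNcor1, against a corepressor subunit, mt-Atp6 (0.50) and mt-Co3 (0.63) rose and mt-Nd5 (-0.49) fell, where 4.45% of all genes were called. Of these 3 calls, that of mt-Co3 alone held without each replicate in turn, and 0 were made when the controls were nt plus Mock. For 10 siRNAs 2 members were called. With the share of all genes called, they included siApex1 (0.697%; mt-Co3 and mt-Nd4l higher), siBrd8 (0.797%; mt-Co3 higher, mt-Nd5 lower) and siCbx7 (0.365%; mt-Co1 and mt-Co3 higher). They also included siEp300 (5.68%; mt-Nd3 and mt-Nd6 lower), siHdac1 (1.06%; mt-Cytb and mt-Nd1 lower) and siPhf1 (1.92%; mt-Co3 higher, mt-Td lower). Others were siPrmt2 (0.199%; mt-Co3 and mt-Rnr2 higher), siSet (0.398%; mt-Co3 and mt-Nd4l higher) and siTead2 (1.03%; mt-Co3 higher, mt-Co2 lower).

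A single member was called after 9 siRNAs. It was mt-Co3, higher, after siCdk1 (2.59% of all genes called), siJarid2 (0.697%), siKmt2e (1.29%), siMyc (0.299%), sip53 (1.96%), siTdrd3 (0.863%) and siTdrd7 (0.232%). It was mt-Nd4l, higher, after siPrkdc (1.76%) and mt-Nd4, higher, after siWhsc1l1 (1.76%). After siHat1 (0.398%), siKmt2d (0.962%), siMtf1 (0.431%), siPrmt5 (0.896%), siPrmt7 (0.763%) and siSetdb1 (0.133%) edgeR called 0 members, with 4, 5, 4, 3, 4 and 2 of 17 at an unadjusted p under 0.05.

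By share, 5 siRNAs had every library above every nt library (among them siCbx7, siPrmt2, siTdrd7 and siPrkdc, with means of 29.1%, 29.0%, 27.9% and 27.3%) and 5 had every library below (siIrx1, siBptf, siBrca1, siEny2 and siMtf1). For siMtf1 this rests on 2 libraries, since the library left out for its depth had a share of 25.7%, within the range of nt. The remaining 23 siRNAs overlapped nt. The mRNA share overlapped nt after all 33 siRNAs, while the rRNA share was above after 5 and below after 10. Set against the nt library of the same replicate, every library of an siRNA had a higher mRNA share after 11 siRNAs and a lower one after 7, siBptf and siIrx1 among the latter. By the same pairing the rRNA share was higher after 10 and lower after 13, and the whole mitochondrial share higher after 10 and lower after 10.

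The nuclear rows whose level was most like the summed mitochondrial mRNA over the 42 condition means were again copies: Gm28437 (Pearson's r 0.897), Gm13339 (0.862) and Gm10925 (0.842). They were followed by Rps4x, a ribosomal protein gene (0.834), and Hsp90aa1, a cytosolic chaperone (0.825). The conditions share their libraries' depth and scaling with both sides of this measure, so that it is a description over 42 points. Among the members, mt-Nd4 (0.949) and mt-Nd1 (0.935) were most like the sum they are part of, and mt-Td (-0.182) and mt-Atp8 (0.196) least.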

How the data were processed

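RNA was measured by CEL-Seq2 in 129 libraries, sequenced as 3 pools of 1 replicate each; the condition of a library was read from its column name. Reads had been mapped by the authors (Bowtie2, mm10), who counted UMIs with the CEL-Seq2 pipeline on GENCODE vM13, and the deposited counts are unnormalized whole numbers per gene symbol. UMI correction followed the defaults of that pipeline. How reads with several equal matches were treated is not given in the sources used here. The log2 values they deposited are CPM on a log2 scale after scaling and regression of batch effects by the authors, and served only as an alternative.

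Libraries under 10000 counts (2) were left out. edgeR 4.0.16 (R 4.3.3) fitted the counts of 127 libraries with TMM scaling, filterByExpr, a term per condition and a replicate term, which left 3013 genes and 83 residual degrees of freedom; calls have a Benjamini-Hochberg adjusted p under 0.05. Standard errors come from the test statistic. The fit was also run on simulated counts with known changes, whose outcome is not given here. Numbers of a replicate mark a shared sequenced pool. Deviations from the condition mean correlated only weakly, with a median r of 0.0981 for the same number and -0.0685 otherwise. Deviations within a condition sum to 0, so that these 2 values are not independent of each other. Nuclear copies were sought with BLAST against GENCODE vM21 transcripts (GRCm38). Alternatives were RLE scaling, scaling on other rows, no filter, no replicate term, fewer or more libraries, nt with Mock as the control, DESeq2 1.42.0 and limma 3.58.1.

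The members and lists were chosen with earlier results of these data known. Named were all mRNAs and rRNAs, tRNAs with 10 or more counts, and each siRNA with a called member. Wdr5, Brca1, Bard1, Pou5f1 and Ncor1 were named whatever their calls. Also named were copies with counts, the 5 rows most like the members' sum, and up to 2 called genes of each nuclear list. The siRNAs without a call were named after their values were seen. The results of 1 siRNA are not reported here by name, though its libraries were part of the fit and of the counts over all siRNAs.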

Additional observations from a re-analysis of the deposited data

Results flagged for a closer look

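Of 22 sets of 5 Mock values, 1 held a value far from the others, which is about as many as chance gives (1 in 20): mt-Nd5 was at 9150 CPM in the Mock library of replicate 3 and between 13322 and 14845 CPM in the other 4. The nt library of replicate 3 was also the lowest of its group for this gene.

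The 2 libraries left out for their depth were looked at on their own. The siMtf1 library of replicate 3, with 7981 counts, had 15.3% of them on the mitochondrial rRNAs, above the highest nt library (13.9%). The Mock library of replicate 3 with 6403 counts held 572 counts of mt-Rnr2 and 85 of mt-Rnr1, a ratio of 6.73, against 0.982 to 1.54 in nt. Both rest on 1 shallow library each.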

How the results depend on the processing

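Of 94 recomputed values of the main results, 76 kept their direction and stayed within 1.5 times of the count, or within 1 SD of the share. Without the replicate term, the calls of members were 4 in place of 8 for Day06 against Day00, 1 in place of 2 for Mock against nt and 31 in place of 73 over the 33 siRNAs. In limma on the deposited log2 values, where the authors had corrected batch effects by regression, they were 5 (Day06 against Day00), 5 in place of 15 (nt against Day06), 1 in place of 8 (siWdr5 against nt), 0 (Mock against nt) and 6 (the siRNAs). Over the siRNAs DESeq2 made 110 calls and the fit without a filter on low counts 102, of them 32 higher. Leaving out 1 replicate gave 5 to 7 (Day06 against Day00), 11 to 13 (nt against Day06), 6 to 8 (siWdr5), 0 to 2 (Mock) and 32 to 55 (the siRNAs, fewest without replicate 2). Without the siPou5f1 library of replicate 1 alone, a setting chosen after seeing the data, there were 98 siRNA calls. The causes were not tested. By class, the share of Day06 exceeded that of Day00 by 1.49 percentage points, or 0.320 for rRNA alone. That of nt exceeded Day06 by 8.24, or 2.74 for mRNA and 5.48 for rRNA. siWdr5 was 2.32 below nt, but 0.389 above it for mRNA alone.

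Adding the counts of the nuclear copies to their members, an alternative chosen after seeing the data, gave 8, 16, 8, 2 and 74 calls, and correcting for collisions among 65536 UMIs, also chosen after seeing the data, gave 9, 15, 8, 2 and 75. The largest count of a member, 14724, became 16677. RLE size factors shifted the all-gene median (log2) by more than 0.1 in 6 comparisons, from -0.21 for Day05 against Day00 to 0.17 for siWdr5. The 70 called changes of Day01, Day03, Day06, nt, Mock, siBard1, siBptf, siBrca1, siIrx1 and siWdr5 were also recomputed singly. Of the 901 values, 187 lost their call and 0 changed direction.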
